A study of Mus musculus with 24 samples.

Results

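Initiation and elongation factors are the proteins that load an mRNA onto the ribosome and then move the ribosome along it. The 57 genes described here are the protein-coding genes on mouse chromosomes 1 to 19 whose symbol begins with Eif or Eef and a digit, with the Eif4ebp repressor genes left out, among 43346 genes in the count table. Of these, 56 passed the filter on low counts and were tested; Eif4e1b, at 9 counts over all libraries, was not. Names of this form that the rule leaves out are Eif2s3x and Eif1ax on X and Eif2s3y on Y, by their chromosome, and processed pseudogenes, by their biotype.

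The genes were measured by poly(A) RNA sequencing of gastrocnemius, the large calf muscle, in C57BL6 mice. Male LLC1 mice, male vehicle mice, female LLC1 mice and female vehicle mice formed 4 groups of 6. LLC1 mice were given Lewis lung carcinoma cells under the skin at 7 weeks of age and vehicle mice were given PBS, and muscle was taken after 3 weeks; no group carries a transgene or another treatment, per the labels. Subcutaneous LLC1 growth is a common mouse model of cancer cachexia, in which muscle is lost, and the study also assessed the rate of muscle protein synthesis, which is not analysed here.

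Translation begins when eIF4F binds the cap of an mRNA through eIF4E, with the scaffold eIF4G and the helicase eIF4A. The large eIF3 complex joins this mRNA to the small ribosomal subunit, which carries the initiator tRNA on eIF2. After each round eIF2 is recharged with GTP by eIF2B, and kinases that phosphorylate eIF2 block that recharging. Elongation then runs on eEF1A, which delivers aminoacyl-tRNA, and eEF2, which moves the ribosome by a codon. Muscle fibres are known to use eEF1A2, encoded by Eef1a2, in place of the eEF1A1 of most other adult tissues.

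Libraries held 26.2 to 47.4 M counts (M, mega-counts). The 4 groups ran on separate lanes, and an effect of lane cannot be told apart from one of group. Within a group the titles give each library a mouse number of its own, and some numbers recur between groups. The p-values of the main edgeR fit rest on the spread among mice within groups, with an estimate for each gene shared by all 4 groups. The spread among males thus enters the female p-values, and that among females the male ones. Muscle fibre markers such as Acta1 and Ckm were abundant in every group, with a sum over 9 markers of 135013 to 202681 CPM in male LLC1 mice, against 165009 to 211666 CPM in male vehicle mice, and 139073 to 210562 CPM in female LLC1 mice, against 162602 to 206710 CPM in female vehicle mice. Of these markers 3 fell in males and 2 in females (1 without female LLC1 mouse 2-3), and 0 rose. Of 3 satellite cell markers 2 fell in each sex, where the female count was 0 without female LLC1 mouse 2-3 and 1 when LLC1 female 1-4, 1-5 or 2-4 or vehicle female 1-3, 2-1, 2-2 or 2-3 was left out, and of 6 fibro-adipogenic markers 3 fell and 1 rose in males and 1 rose in females. Fbxo32 and Trim63, ubiquitin ligases that mark muscle wasting, rose with LLC1 in both sexes, with 1 of the pair not called in females when LLC1 female 2-3 or vehicle female 2-1 or 2-3 is left out. Neutrophil markers (13 genes, 11 tested) summed to 73.1 to 194 CPM in male LLC1 mice, against 3.41 to 8.88 CPM in male vehicle mice, and to 69.7 to 188 CPM in female LLC1 mice, against 4.59 to 9.68 CPM in female vehicle mice. All 11 rose in both sexes, and Ltf and Elane were at 0 in male vehicle mice. Erythroid markers (8 genes) summed to 1211 to 4295 CPM in male LLC1 mice, against 426 to 1082 CPM in male vehicle mice, and to 1235 to 19994 CPM in female LLC1 mice, against 474 to 1028 CPM in female vehicle mice, and 8 of 8 rose in both sexes. The part of these cells in the results below was not tested. CPM is the count divided by the TMM-scaled library size in M. In whole muscle, fewer cells of a type and less RNA per cell cannot be told apart.

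Translation factor transcripts took up more of the RNA in tumour-bearing muscle of both sexes. The 57 genes held 0.912% to 1.31% of all counts in male LLC1 mice (median 1.05%), against 0.838% to 0.852% in male vehicle mice (median 0.847%). They held 0.922% to 1.11% in female LLC1 mice (median 1.04%), against 0.851% to 0.915% in female vehicle mice (median 0.875%). Every LLC1 library lay above every vehicle library of its sex in this share. The share divides by total counts without TMM factors, so it also moves when other transcripts take up more or less of the total. TMM factors ran from 0.9537 to 1.041 in male LLC1 mice, against 0.9241 to 1.056 in male vehicle mice. In females they ran from 0.9272 to 1.097 with LLC1, against 0.9506 to 1.055 with vehicle. The share after TMM scaling was not compared. Male LLC1 mouse 1-5 had the highest share and male LLC1 mouse 2-2 the lowest of its group.

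Gene by gene, 37 of the 56 genes tested rose and 4 fell with LLC1 in males, at an adjusted p under 0.05 over all 17773 genes in edgeR's quasi-likelihood test. Of all genes tested in males 36.3% were called, 19.5% as higher and 16.8% as lower, while 73.2% of the translation factors were called and 66.1% were higher. In females 10 of the 56 rose and 0 fell, or 17.9%. Of all genes tested in females 9.92% were called, 4.97% as higher and 4.95% as lower. An unadjusted p under 0.05 was seen in females for 22 of the 56 genes and for 4534 of all 17773 genes. The female count was 10 with limma-voom and 11 with DESeq2, of which 1 was lower, but 21 in a fit of the female groups alone, 20 higher and 1 lower, and 15 without male LLC1 mouse 1-5. In the fit of the female groups alone, the spread is estimated from female mice only. The median log2 fold change over the 56 was 0.29 in males and 0.12 in females, beside 0.01 and -0.01 over all genes tested. All 10 genes that rose in females also rose in males: Eif4b, Eif4g3, Eif4e2, Eif3f, Eif3j1, Eif3j2, Eif2b5, Eif1, Eif1a and Eef2. A further 27 were called higher in males and not in females, 4 were called lower in males and not in females, and 15 were called in neither sex.

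**Figure D1:**
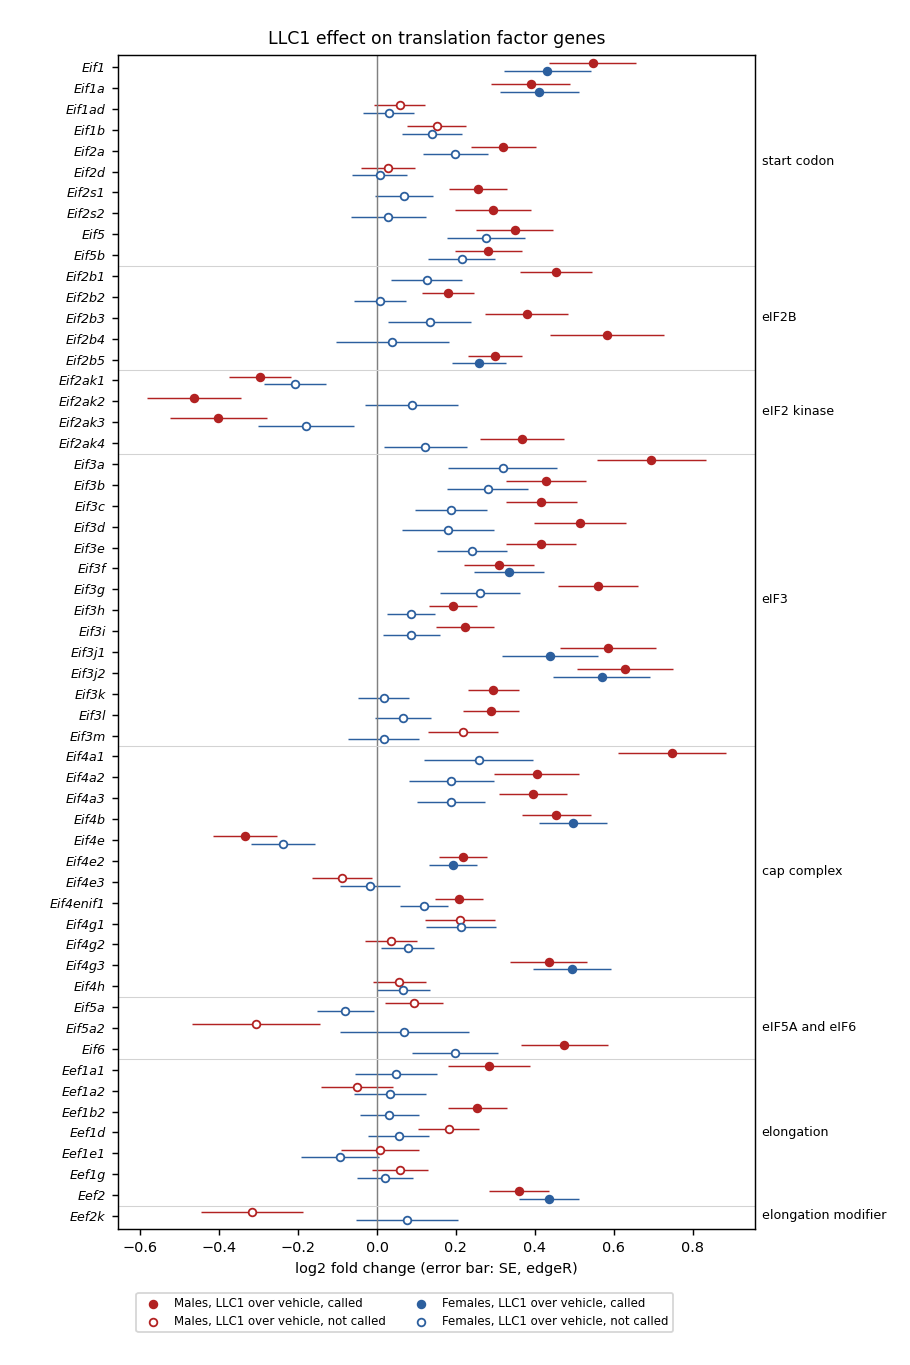
Log2 fold change of LLC1 over vehicle (horizontal axis, with the standard error from edgeR) for the 56 genes tested, ordered by role down the page, in males (red) and females (blue); filled points passed an adjusted p of 0.05. Most points lie right of 0, with 48 of 56 above 0 in males and 50 of 56 in females, and the filled points left of 0 are the male values of Eif4e, Eif2ak1, Eif2ak2 and Eif2ak3.

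The 12 genes tested whose symbol begins with Eif4 were grouped by that name as the cap complex, and 7 of them rose in males. The 7 were all 3 Eif4a genes, Eif4b, Eif4g3, Eif4e2 and Eif4enif1. Of these, Eif4a3, Eif4e2 and Eif4enif1 have other roles, given below. In males 1 of the 12, the cap-binding protein gene Eif4e, fell, while Eif4g1, Eif4g2, Eif4h and Eif4e3 were not called. In females 3 rose (Eif4b, Eif4g3 and Eif4e2) and 0 fell, or 1 with DESeq2, in a fit of the female groups alone and without female LLC1 mouse 2-5 or male LLC1 mouse 1-4. Here 4 genes are shown with the 250 bases before a RefSeq gene start (GRCm38.p6). They were taken from the members with the E-box CACGTG in such a window, printed in capitals, so its presence in all 4 was fixed by that choice. They include the gene that rose most in males (Eif4a1) and the one cap-complex gene that fell (Eif4e). The others are a scaffold gene that did not pass (Eif4g1) and the elongation factor that rose in both sexes (Eef2). The Eif4e and Eif4g1 windows lie inside the counted genes, which begin at chr3:138526191 and chr16:20668313.
Eif4a1 (chr11:69672424-69672673, minus strand): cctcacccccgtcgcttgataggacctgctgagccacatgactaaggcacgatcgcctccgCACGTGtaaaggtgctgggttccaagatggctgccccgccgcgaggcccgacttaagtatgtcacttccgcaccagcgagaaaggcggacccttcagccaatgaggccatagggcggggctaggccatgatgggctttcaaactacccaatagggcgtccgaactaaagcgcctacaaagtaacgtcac
Eif4e (chr3:138527018-138527267, plus strand): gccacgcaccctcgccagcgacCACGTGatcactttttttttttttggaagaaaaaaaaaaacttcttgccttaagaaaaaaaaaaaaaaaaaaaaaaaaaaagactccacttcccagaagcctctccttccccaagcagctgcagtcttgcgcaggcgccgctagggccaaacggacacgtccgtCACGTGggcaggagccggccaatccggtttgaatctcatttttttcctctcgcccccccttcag
Eif4g1 (chr16:20672477-20672726, plus strand): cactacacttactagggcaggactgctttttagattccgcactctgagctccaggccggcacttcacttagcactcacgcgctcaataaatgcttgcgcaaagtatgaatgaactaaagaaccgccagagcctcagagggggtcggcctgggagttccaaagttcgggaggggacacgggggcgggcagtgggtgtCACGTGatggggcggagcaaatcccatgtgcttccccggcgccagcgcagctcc
Eef2 (chr10:81176381-81176630, plus strand): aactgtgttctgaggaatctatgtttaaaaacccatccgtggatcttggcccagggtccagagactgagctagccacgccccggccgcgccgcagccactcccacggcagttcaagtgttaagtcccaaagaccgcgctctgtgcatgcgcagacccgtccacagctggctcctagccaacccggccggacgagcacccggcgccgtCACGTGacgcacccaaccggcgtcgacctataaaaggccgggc
CACGTG reads the same on both strands, so each match counts for both. It was present in such a window, at any RefSeq start of the gene, in 11 of the 45 members with a RefSeq sequence (24.4%) and in 1071 of 11210 tested genes (9.55%). With LLC1 in males, 4 of the 11 genes with the motif rose, 1 fell and 6 were not called, and of the 34 genes with a sequence and no such motif 26 rose, 3 fell and 5 were not called. The motif is thus found in genes that rose, fell and were not called, and a match describes these letters only. A core of the NRF1 motif, searched on both strands, was present in 15.6% of members and 8.24% of tested genes. TGATGNAA, where N is any base, likewise searched on both strands, was present in 2.22% of members and 2.4% of tested genes.

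Eif4a1 encodes the main eIF4A helicase, which unwinds the leader of the mRNA, and lies at chr11:69666936-69672423 (mm10, as are all gene positions here). It had 85.2 to 203 CPM in male LLC1 mice (median 129), against 77.2 to 96.7 CPM in male vehicle mice (median 83.1). In females it had 89.7 to 107 CPM with LLC1 (median 96.6), against 74.5 to 89.1 CPM with vehicle (median 81.6). Of the 6 LLC1 males 5 lay above every vehicle male, and mouse 2-2 lay within their range, while all 6 LLC1 females lay just above every vehicle female. The log2 fold change was 0.75 ± 0.14 (SE) in males (adjusted p = 3.35e-04) and 0.26 ± 0.14 in females (adjusted p = 0.243), the female value passing in a fit of the female groups alone (0.26, adjusted p = 0.00907). A processed pseudogene, Eif4a-ps4, matches Eif4a1 at 99.9% over 1218 bases and took 15.5% as many counts, so reads may be split between them. Its paralogue Eif4a2 was at 363 to 646 CPM in male LLC1 mice (median 450.5), against 305 to 401 CPM in male vehicle mice (median 356), and rose by 0.40 ± 0.11 (adjusted p = 0.00551). In females Eif4a2 was at 0.19 ± 0.11 (adjusted p = 0.281). Eif4a3, the eIF4A-like helicase of the exon junction complex, rose in males by 0.39 ± 0.09 (adjusted p = 0.00133).

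Eif4b, which stimulates the eIF4A helicase, rose in both sexes. It had 312 to 453 CPM in male LLC1 mice (median 379), against 217 to 302 CPM in male vehicle mice (median 278), and 303 to 369 CPM in female LLC1 mice (median 338), against 228 to 261 CPM in female vehicle mice (median 238). LLC1 and vehicle mice did not overlap in either sex. The log2 fold change was 0.45 ± 0.09 in males (adjusted p = 4.62e-04) and 0.50 ± 0.09 in females (adjusted p = 6.74e-04). Eif4g3, one of the eIF4G scaffolds, had 267 to 374 CPM in male LLC1 mice (median 337), against 193 to 269 CPM in male vehicle mice (median 254), with 239.8 to 338 CPM in female LLC1 mice (median 287), against 165 to 236 CPM in female vehicle mice (median 209). It rose by 0.43 ± 0.10 in males (adjusted p = 0.00159) and 0.49 ± 0.10 in females (adjusted p = 0.00215), with overlap of the groups in males only. Eif4g1, the most studied eIF4G scaffold, was at 0.21 ± 0.09 in each sex (adjusted p = 0.0649 in males and 0.125 in females). The male value passed without TMM scaling (adjusted p = 0.017), with DESeq2 (0.0457) and without male LLC1 mouse 1-4 (0.0139) or 2-2 (0.0331).

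Eif4e, the cap-binding protein whose availability the 4E-BP repressors limit, went the other way. It had 57.7 to 81.6 CPM in male LLC1 mice (median 62.1), against 75.3 to 89.7 CPM in male vehicle mice (median 82.3), and 64.5 to 78.2 CPM in female LLC1 mice (median 69.7), against 72.6 to 92.3 CPM in female vehicle mice (median 83.9). In males 5 of 6 LLC1 mice lay below every vehicle mouse, with mouse 1-4 inside the vehicle range, and in females 4 of 6 did. Eif4e fell by 0.33 ± 0.08 on the log2 scale in males (adjusted p = 0.00292). In females it was at -0.24 ± 0.08 (adjusted p = 0.0631), a value that passed with DESeq2 (0.048), in a fit of the female groups alone (0.0422) and without female LLC1 mouse 2-5 (0.0418) or male LLC1 mouse 1-4 (0.0325). Eif4e2, a cap-binding relative that represses some mRNAs, rose by 0.22 ± 0.06 in males (adjusted p = 0.00777) and by 0.19 ± 0.06 in females (adjusted p = 0.0459). That female call was lost in 15 of the 24 fits that each leave out 1 library (adjusted p up to 0.0813): without female LLC1 mice 1-4, 1-5, 2-3, 2-4 or 2-5, female vehicle mice 1-1, 1-3, 2-1 or 2-2, male LLC1 mouse 2-4, or male vehicle mice 1-1, 1-2, 1-4, 2-4 or 2-5. Eif4enif1, which carries eIF4E into the nucleus, rose in males (0.21 ± 0.06, adjusted p = 0.0108). Eif4e3, Eif4g2 and Eif4h were called in neither sex, between -0.09 and 0.08.

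**Figure D2:**
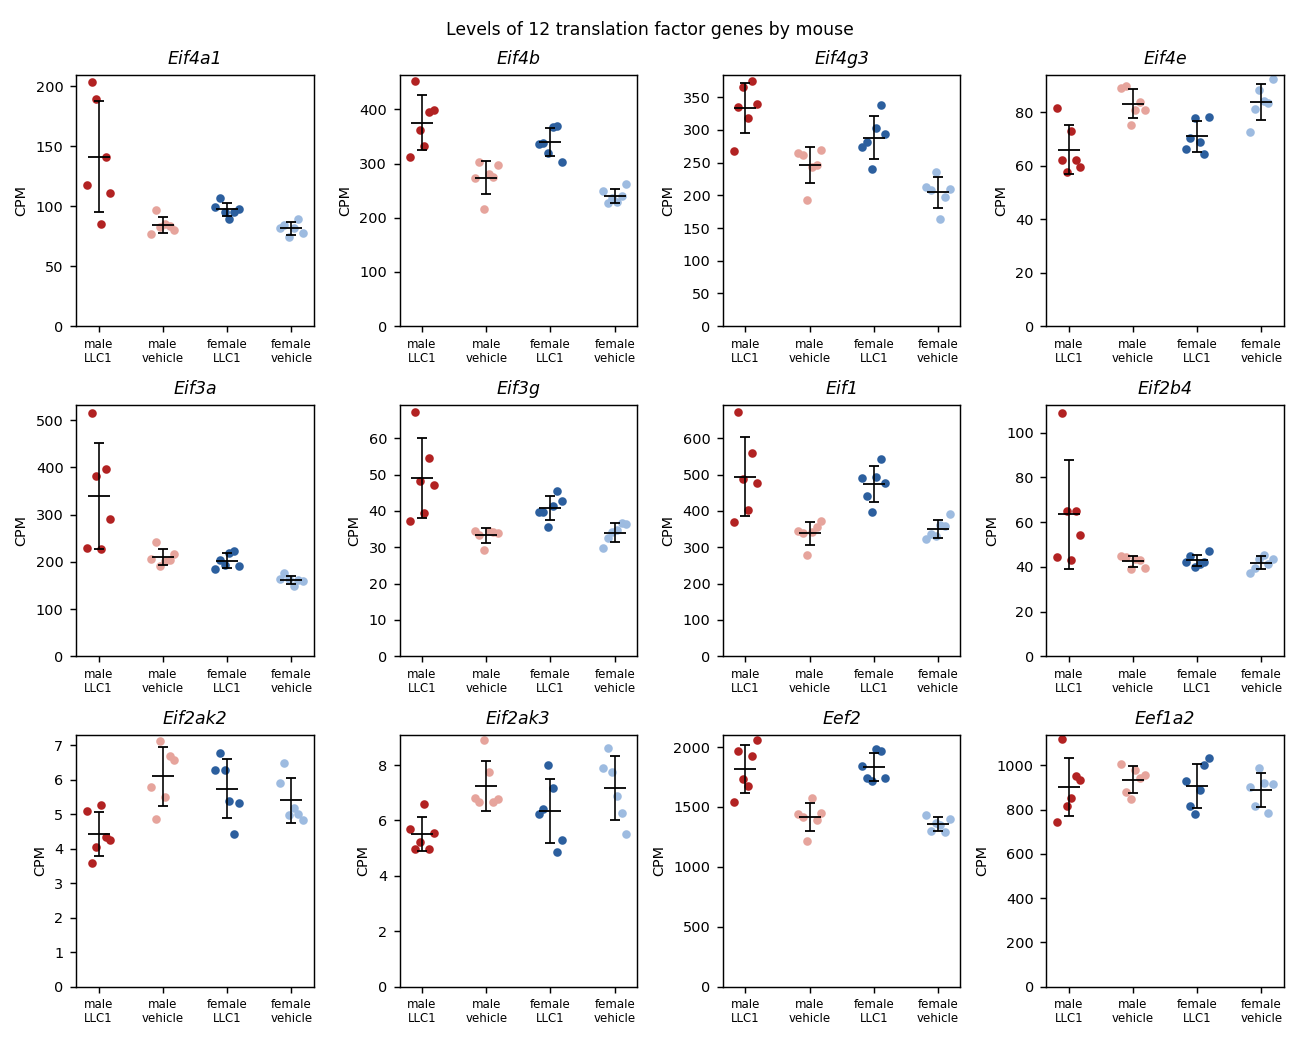
CPM (vertical axes, from 0) of 12 translation factor genes in each mouse, by group, with the group mean and SD as bars (n = 6). Eif4b and Eif4g3 lie higher in LLC1 than in vehicle mice of both sexes, Eif4e lies lower, Eif4a1, Eif3a and Eif2b4 spread widely among LLC1 males, and Eef1a2 lies at similar levels in every group.

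Most genes of the eIF3 complex rose in males, where 13 of its 14 subunit genes were higher and 0 lower, with log2 fold changes of 0.19 to 0.69 and a median of 0.42. In females all 14 lay above 0 (0.02 to 0.57, median 0.22) and 3 rose, or 9 in a fit of the female groups alone and 6 without male LLC1 mouse 1-5. Only Eif3m was not called in males (0.22 ± 0.09, adjusted p = 0.0577), and it passed without male LLC1 mouse 2-2 or 2-5 or male vehicle mouse 1-2 (adjusted p down to 0.0206). Eif3i was not called without male LLC1 mouse 1-5 or male vehicle mouse 1-3 (adjusted p up to 0.0592).

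Eif3a, the large core subunit (chr19:60761116-60790693), had 226 to 515 CPM in male LLC1 mice (median 337), against 191 to 241 CPM in male vehicle mice (median 205), and 186 to 223 CPM in female LLC1 mice (median 199), against 149.8 to 176 CPM in female vehicle mice (median 163). LLC1 males 1-4 and 2-2 lay within the vehicle range and the other 4 above it, while LLC1 and vehicle females did not overlap. Eif3a rose by 0.69 ± 0.14 in males (adjusted p = 6.34e-04). In females it was at 0.32 ± 0.14 (adjusted p = 0.143), and passed in a fit of the female groups alone (0.00406). Eif3g, an RNA-binding subunit that takes part in scanning, had 37.3 to 67.3 CPM in male LLC1 mice (median 47.7), against 29.2 to 34.5 CPM in male vehicle mice (median 34.1), with no overlap. It rose by 0.56 ± 0.10 (adjusted p = 3.11e-04), and in females was at 0.26 ± 0.10 (adjusted p = 0.103), which passed in a fit of the female groups alone and without male LLC1 mouse 1-5 (0.0311). Eif3e, a subunit outside the conserved core, rose in males by 0.42 ± 0.09 (adjusted p = 0.00108), with 148 to 224 CPM in male LLC1 mice (median 159), against 116 to 145 CPM in male vehicle mice (median 124).

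Eif3f, which in cultured muscle cells is a target of the Fbxo32 ligase, rose in both sexes at the RNA level. It had 62.5 to 95.9 CPM in male LLC1 mice (median 84), against 57.5 to 70.5 CPM in male vehicle mice (median 67.1), and 80.4 to 98 CPM in female LLC1 mice (median 92.3), against 63.1 to 83.1 CPM in female vehicle mice (median 71.1). In each sex 5 of 6 LLC1 mice lay above every vehicle mouse. The log2 fold change was 0.31 ± 0.09 in males (adjusted p = 0.00891) and 0.33 ± 0.09 in females (adjusted p = 0.0178). Eif3j1 and Eif3j2, a pair encoding the loosely bound eIF3j subunit, rose by 0.59 ± 0.12 and 0.63 ± 0.12 in males (adjusted p = 8.71e-04 and 5.24e-04) and by 0.44 ± 0.12 and 0.57 ± 0.12 in females (adjusted p = 0.0226 and 0.00414). Eif3j2 had 16.1 to 33.5 CPM in male LLC1 mice (median 23), against 12.9 to 17.7 CPM in male vehicle mice (median 14.8), and 17.6 to 21.3 CPM in female LLC1 mice (median 19.2), against 10.8 to 14.3 CPM in female vehicle mice (median 13.5). The sequence of Eif3j2 matches Eif3j1 at 99.4% over 2379 bases, so the split of reads between them is uncertain. The female call of Eif3j1 did not hold when LLC1 female 2-3 (adjusted p = 0.0506) or 2-4 (0.0509) was left out.

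Genes of start codon selection mostly rose in males, 7 of 10 with 0 lower, and 2 of 10 rose in females, or 5 in a fit of the female groups alone and 4 without male LLC1 mouse 1-5. Eif1, the guard of start codon choice, had 371 to 673 CPM in male LLC1 mice (median 482), against 279 to 373 CPM in male vehicle mice (median 343), and 397 to 542 CPM in female LLC1 mice (median 483), against 324 to 392 CPM in female vehicle mice (median 349). All 6 LLC1 females and 5 of 6 LLC1 males lay above every vehicle mouse of their sex. Eif1 rose by 0.55 ± 0.11 in males (adjusted p = 7.24e-04) and 0.43 ± 0.11 in females (adjusted p = 0.0146). Its close relative Eif1b was at 0.15 ± 0.08 in males (adjusted p = 0.119) and 0.14 ± 0.07 in females (adjusted p = 0.248), and passed in males without LLC1 mouse 2-2 (adjusted p = 0.0446). Eif1a, the partner of eIF1 on the small subunit, rose by 0.39 ± 0.10 in males (adjusted p = 0.00462) and 0.41 ± 0.10 in females (adjusted p = 0.0109), with 13.3 to 19.9 CPM in female LLC1 mice (median 18.2), against 11.9 to 14.6 CPM in female vehicle mice (median 13.1). Of the 2 eIF2 subunit genes on autosomes, Eif2s1, which encodes the alpha subunit that is phosphorylated, rose in males by 0.26 ± 0.07 (adjusted p = 0.00889) and was at 0.07 ± 0.07 in females (adjusted p = 0.603). It had 39.3 to 55.5 CPM in male LLC1 mice (median 45.2), against 35.8 to 41 CPM in male vehicle mice (median 37.3). Eif2s2 rose in males (0.29 ± 0.10, adjusted p = 0.019), a call lost without male LLC1 mouse 1-5 or male vehicle mouse 1-3 (adjusted p up to 0.0723). Eif5, which triggers GTP hydrolysis on eIF2, and Eif5b, which joins the subunits, rose in males by 0.35 ± 0.10 and 0.28 ± 0.08 (adjusted p = 0.00784 and 0.0119). In females these lay at 0.28 and 0.22 (adjusted p = 0.0728 and 0.107). Eif2a, an initiator tRNA carrier outside eIF2, rose in males by 0.32 ± 0.08 (adjusted p = 0.00423). Eif2d and Eif1ad were called in neither sex, at 0.03 and 0.06 in males, and Eif1ad shares 15.3% of its exon length with Banf1 on the other strand, where these libraries cannot tell the strands apart. Eif5 passed in females without female vehicle mouse 2-3, male LLC1 mouse 1-4 or 1-5 or male vehicle mouse 1-3 (adjusted p down to 0.0319), and Eif5b without male LLC1 mouse 1-5 (0.0454).

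All 5 subunit genes of eIF2B, the factor that recharges eIF2, rose in males, and Eif2b5 alone passed in females. Eif2b5 encodes the catalytic epsilon subunit and had 64.9 to 88.7 CPM in male LLC1 mice (median 73.6), against 54.3 to 64.1 CPM in male vehicle mice (median 62.4), and 67 to 73.1 CPM in female LLC1 mice (median 71), against 53.2 to 62.9 CPM in female vehicle mice (median 59.4). The groups did not overlap in either sex, and it rose by 0.30 ± 0.07 in males (adjusted p = 0.00176) and 0.26 ± 0.07 in females (adjusted p = 0.017). Eif2b1, the alpha subunit, had 42.1 to 64 CPM in male LLC1 mice (median 46.2), against 30.7 to 40.1 CPM in male vehicle mice (median 36), and rose by 0.45 ± 0.09 (adjusted p = 6.59e-04). Eif2b4, the delta subunit, was picked out after its values were seen, for its spread: LLC1 males had 43.2 to 109 CPM (median 59.6), against 39 to 44.8 CPM in male vehicle mice (median 43.2). It rose by 0.58 ± 0.14 in males (adjusted p = 0.00341), and by 0.36 without male LLC1 mouse 1-5 (adjusted p = 0.00952 at most over the fits that leave out 1 library). Eif2b3, the gamma subunit, rose in males by 0.38 ± 0.10 (adjusted p = 0.00705). In females Eif2b4 was at 0.04 ± 0.14 (adjusted p = 0.902). The male call of Eif2b2 (0.18 ± 0.07, adjusted p = 0.0354) was lost in 7 of the 24 fits that leave out 1 library (adjusted p up to 0.101): without male LLC1 mouse 1-5, 2-4 or 2-5 or male vehicle mouse 1-3, 1-4, 2-4 or 2-5.

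Of the 4 kinases that phosphorylate eIF2, 3 fell in males and 1 rose. In females none was called in edgeR's fit of the 4 group means to all 24 libraries, where 1 had an unadjusted p under 0.05. None passed in females with DESeq2 or limma-voom. Eif2ak1, known for its heme-regulated activity in red cell precursors, had 80.4 to 105 CPM in male LLC1 mice (median 86.4), against 96.5 to 116 CPM in male vehicle mice (median 109), and 5 of 6 LLC1 males lay below every vehicle male. It fell by 0.30 ± 0.08 on the log2 scale in males (adjusted p = 0.00524). In females it was at -0.21 ± 0.08 (adjusted p = 0.0902), which passed without female LLC1 mouse 2-5 (0.0253). The female value also passed in edgeR with the first digit of the mouse number as a replicate block (adjusted p = 0.0493). The annotated exons of Eif2ak1 share 488 bases with Aimp2, so some reads cannot be assigned to either. Eif2ak2, the double-stranded RNA sensor PKR, had 3.58 to 5.27 CPM in male LLC1 mice (median 4.29), against 4.87 to 7.12 CPM in male vehicle mice (median 6.19), and fell by 0.46 ± 0.12 (adjusted p = 0.00422). Female LLC1 mice had 4.42 to 6.76 CPM of Eif2ak2 (median 5.83), against 4.84 to 6.48 CPM in female vehicle mice (median 5.09), a value of 0.09 ± 0.12 (adjusted p = 0.686). Eif2ak3, the endoplasmic reticulum stress sensor PERK, had 4.96 to 6.6 CPM in male LLC1 mice (median 5.4), against 6.66 to 8.89 CPM in male vehicle mice (median 6.79), and was the one gene of the 56 with every LLC1 male below every vehicle male. It fell by 0.40 ± 0.12 in males (adjusted p = 0.0133; 0.0564 without TMM scaling) and was at -0.18 ± 0.12 in females (adjusted p = 0.372). Eif2ak4, the amino acid sensor GCN2, rose in males by 0.37 ± 0.11 (adjusted p = 0.00922), with 10.2 to 16.5 CPM in male LLC1 mice (median 11.4), against 8.01 to 11.2 CPM in male vehicle mice (median 9.2).

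Of the 7 elongation factor genes 3 rose in males and 1 of these, Eef2, also rose in females. Eef2, which moves the ribosome along the mRNA (chr10:81176631-81182507), was the most abundant member per length in male and female vehicle mice, at 457 ± 37.5 and 438 ± 18.2 CPM per kb. It had 1545 to 2059.6 CPM in male LLC1 mice (median 1828), against 1218 to 1578 CPM in male vehicle mice (median 1429), and 1718 to 1985 CPM in female LLC1 mice (median 1794), against 1289 to 1434 CPM in female vehicle mice (median 1358). All 6 LLC1 females and 5 of 6 LLC1 males lay above every vehicle mouse of their sex. The log2 fold change was 0.36 ± 0.08 in males (adjusted p = 9.92e-04) and 0.44 ± 0.08 in females (adjusted p = 6.49e-04). Eef2k, the kinase that inactivates eEF2, had 46.9 to 103 CPM in male LLC1 mice (median 92.4), against 90.8 to 114 CPM in male vehicle mice (median 109). It was at -0.32 ± 0.13 in males (adjusted p = 0.0584), passing with limma-voom (0.0423) and without male LLC1 mouse 1-4, 2-2 or 2-5 or male vehicle mouse 1-3 (adjusted p down to 0.0279), and at 0.08 ± 0.13 in females (adjusted p = 0.763).

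The muscle form Eef1a2 was close to Eef2 in level per length, at 449 ± 29.1 CPM per kb in male and 426 ± 36.2 CPM per kb in female vehicle mice, and was called in neither sex. It had 745 to 1118 CPM in male LLC1 mice (median 891), against 848 to 1006 CPM in male vehicle mice (median 948), a log2 fold change of -0.05 ± 0.09 (adjusted p = 0.694), with 0.03 ± 0.09 in females (adjusted p = 0.866). Eef1a1, the general form, had 472 to 611 CPM in male LLC1 mice (median 529.97), against 382 to 558 CPM in male vehicle mice (median 406), and male vehicle mouse 1-3 held the 558. It rose in males by 0.28 ± 0.10 (adjusted p = 0.0359) and was at 0.05 ± 0.10 in females (adjusted p = 0.824). The male call was lost without TMM scaling (0.0523), with no filter (0.0509), in a fit of the male groups alone (0.0533) and without male LLC1 mouse 1-5 (0.0988), 2-1 (0.0617) or 2-4 (0.0527) or male vehicle mouse 1-1 (0.0747), 1-2 (0.0657), 2-4 (0.0761) or 2-5 (0.0823). Of the nucleotide exchange subunits that recharge eEF1A, Eef1b2 rose in males by 0.25 ± 0.08 (adjusted p = 0.011), with no overlap between the groups, and Eef1d and Eef1g were called in neither sex. Eef1d passed in males without vehicle mouse 1-2 (adjusted p = 0.0438). Eef1e1, which scaffolds the aminoacyl-tRNA synthetase complex, was at 0.01 in males and -0.09 in females.

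The balance within each paralogue pair was set side by side as a ratio of counts, which needs no library scaling. In males the ratio of Eef1a1 to Eef1a2 was 0.538 to 0.725 with LLC1 (median 0.55), against 0.397 to 0.658 with vehicle (median 0.447), and that of Eif4a1 to Eif4a2 was 0.235 to 0.398 with LLC1 (median 0.281), against 0.215 to 0.272 with vehicle (median 0.234). The mean log2 ratio was higher with LLC1 by 0.35 for the Eef1a pair and 0.30 for the Eif4a pair, with two-sided exact permutation p = 0.0368 and 0.0195, and 0.0736 for both after Benjamini-Hochberg adjustment over 4 tests. In females the differences were 0.01 (exact p = 0.95) and 0.07 (exact p = 0.468). Neither pair passed after adjustment in either sex, and the groups overlapped in each.

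**Figure D3:**
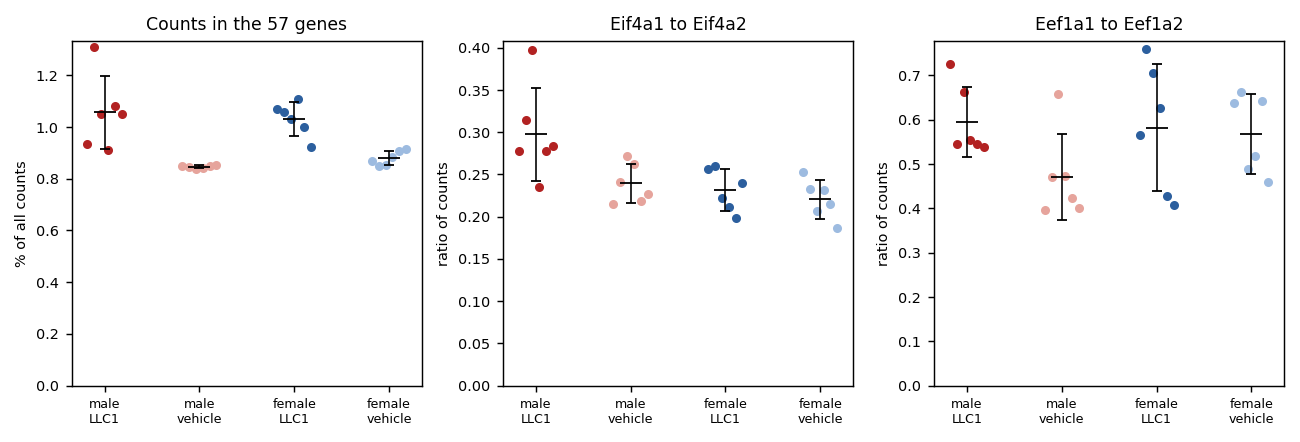
Share of all counts held by the 57 genes (left, percent) and ratio of counts within the Eif4a and Eef1a pairs (middle and right) in each mouse, by group, with mean and SD (n = 6). In the share, LLC1 mice lie above vehicle mice of their sex without overlap, while the ratios overlap between LLC1 and vehicle mice.

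Eif5a, which helps ribosomes through difficult peptide bonds, was called in neither sex. It had 225 to 289 CPM in male LLC1 mice (median 240.3), against 208 to 239.6 CPM in male vehicle mice (median 235), a value of 0.09 ± 0.07 (adjusted p = 0.326), with -0.08 ± 0.07 in females (adjusted p = 0.528). Its paralogue Eif5a2 was the least abundant member tested per length, at 0.412 ± 0.0799 CPM per kb in male vehicle mice, and was not called. Eif6, which keeps the large subunit from joining early, had 28.2 to 53.6 CPM in male LLC1 mice (median 36.2), against 24.1 to 28.8 CPM in male vehicle mice (median 26.4). It rose in males by 0.47 ± 0.11 (adjusted p = 0.00192) and was at 0.20 ± 0.11 in females (adjusted p = 0.263).

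Levels per length in vehicle muscle spanned a wide range, and their order was similar in the sexes. Eef2 and Eef1a2 led, within each other's spread, then Eef1a1 (175 ± 26.5 CPM per kb in male and 201 ± 21.8 in female vehicle mice) and Eif1 (162 ± 15.1 and 167 ± 12), again within each other's spread in males. Eif2ak3, Eif2ak4 and Eif2ak2 lay between 1.06 and 1.34 CPM per kb in both sexes, far below Eif2ak1 (19.2 ± 1.27 in male and 19.7 ± 1.56 in female vehicle mice). Among vehicle mice, 2 of the 56 genes were lower in males than in females and 0 were higher, or 3.57%, where 6.23% of all genes were called, 3.28% as higher and 2.95% as lower in males. Eef1b2 had 93.9 to 116 CPM in male vehicle mice (median 107), against 116 to 159.8 CPM in female vehicle mice (median 144), a male over female log2 fold change of -0.41 ± 0.08 (adjusted p = 0.00133). Eif3k had 44.4 to 54.2 CPM in male vehicle mice (median 49.3), against 52.4 to 63.9 CPM in female vehicle mice (median 60.6), at -0.27 ± 0.07 (adjusted p = 0.013). Without male vehicle mouse 1-3 the count was 6, with Eif4b, Eif4enif1, Eif4g1 and Eif4g3 higher in males (adjusted p = 0.0405, 0.0411, 0.0192 and 0.0221). That library had the highest TMM factor of the male vehicle mice, at 1.056, and the part of scaling in this change was not tested. Eif3a was called higher in male than in female vehicle mice without male LLC1 mouse 1-5 (adjusted p = 0.0411) and in a fit of the vehicle groups alone (0.00294), and Eif4g1 with DESeq2 too (0.0422). Eef1e1 was called lower in males without TMM factors (0.0484). Scaling by total counts without TMM factors moved the median of all genes in this comparison to -0.11.

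The log2 fold change with LLC1 was higher in males than in females for 40 of the 56 genes, and no gene passed the test of that difference. The median of the difference was 0.11 over the 56 and 0.015 over all genes tested. The same mice enter for every gene, so the 40 are not independent, and the tally itself was not tested. With edgeR 0 of the 56 were called, 9 had an unadjusted p under 0.05, and the lowest adjusted p was 0.254. Over all genes 0% were called, 2191 of 17773 had an unadjusted p under 0.05, and DESeq2 called 57, none of them a translation factor. The values furthest from 0 were those of Eif2ak2 (-0.55 ± 0.17, adjusted p = 0.254), Eif2b4 (0.54 ± 0.20, adjusted p = 0.311) and Eif4a1 (0.49 ± 0.19, adjusted p = 0.324), all as male minus female effect. A gene called in males and not in females is therefore not shown to differ between the sexes.

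Mice of 1 group differed in how far these genes moved together. The median log2 difference from the same-sex vehicle mean, over the 56 genes, was 0.49 in male LLC1 mouse 1-5, 0.34 in 2-4, 0.24 in 2-1 and 0.23 in 2-5, and 0.12 in 2-2 and 0.10 in 1-4. Fbxo32 stood at 3974, 3489, 2333 and 2287 CPM in the first 4 of these mice and at 909 and 978 CPM in 2-2 and 1-4. Male vehicle mice had medians of -0.14 to 0.08 and Fbxo32 of 291 to 517 CPM. Female LLC1 mice had medians of 0.09 to 0.18 and Fbxo32 of 465 to 1373 CPM, against -0.12 to 0.07 and 139 to 311 CPM in female vehicle mice. By mouse, the female LLC1 medians were 0.18 in 2-4 and 2-5, 0.15 in 2-3, 0.11 in 1-4, 0.10 in 1-5 and 0.09 in 2-1. Fbxo32 in the same order was 1019, 587, 1373, 465, 684 and 647 CPM, so the 2 orders differed in females. A relation between these medians and Fbxo32 was not tested in either sex. Male vehicle mouse 1-3 and female vehicle mouse 1-1 had the lowest medians of their groups.

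**Figure D4:**
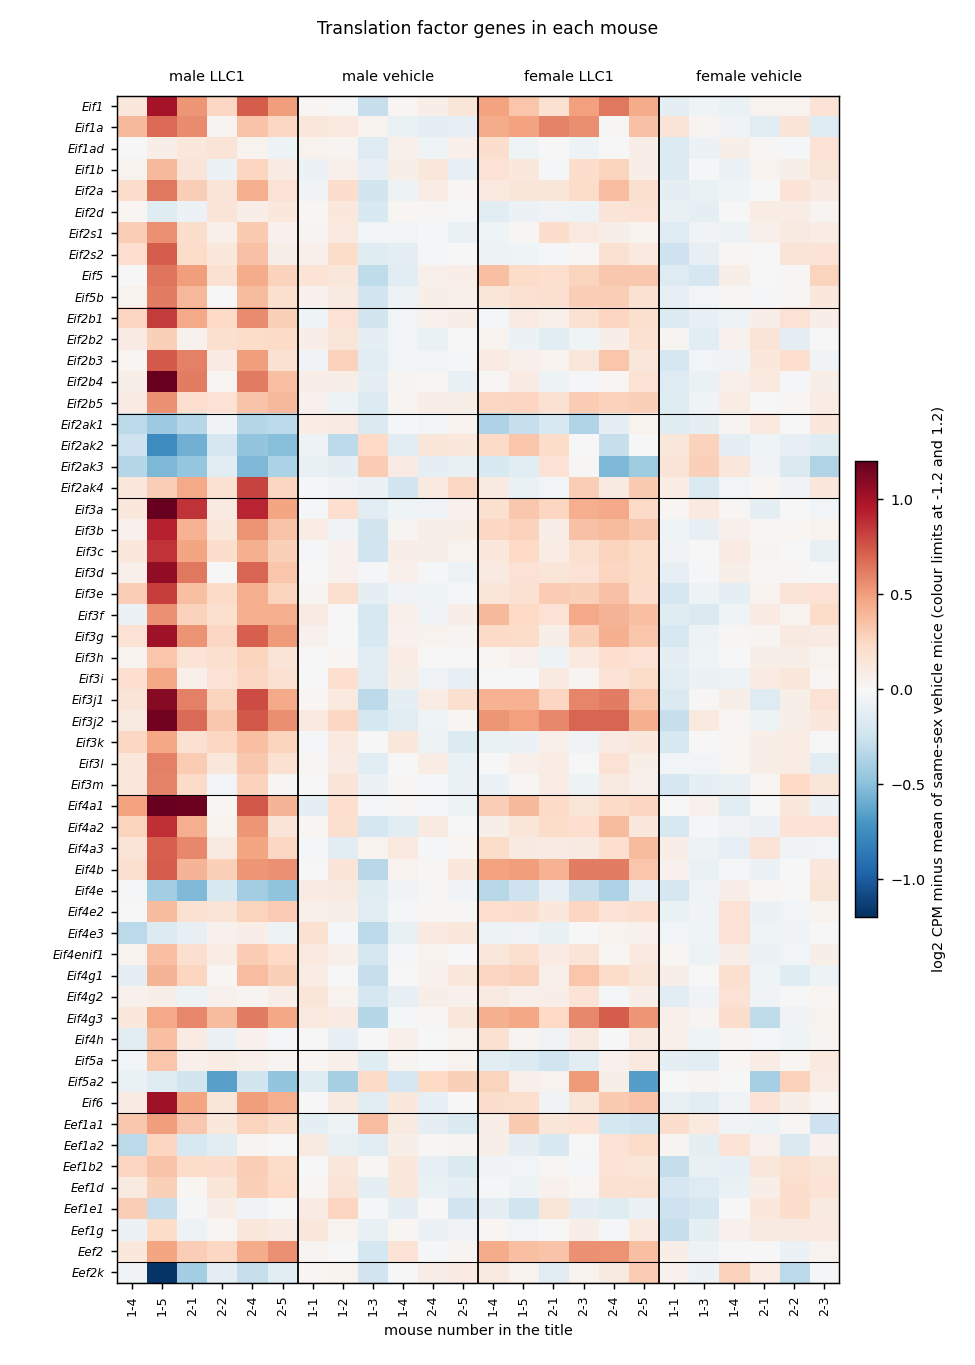
Log2 CPM minus the mean of the same-sex vehicle mice (colour, red above and blue below) for the 56 genes tested (rows, by role) in each mouse (columns). Male LLC1 mice 1-5 and 2-4 are the reddest columns, 1-4 and 2-2 the palest of their group, and the rows of Eif2ak1, Eif2ak2, Eif2ak3 and Eif4e are blue in most male LLC1 mice.

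LLC1 mice lay wholly above vehicle mice for 12 of the 56 genes in females (21.4%) and 9 in males (16.1%), where 4.05% and 4.96% of all genes did. They lay wholly below for 0 genes in females and 1 in males, where 2.5% and 5.35% of all genes did. The 12 female genes were Eef2, Eif1, Eif2b5, Eif3a, Eif3b, Eif3d, Eif3j1, Eif3j2, Eif4a1, Eif4b, Eif4g3 and Eif5b. In males they were Eef1b2, Eif2b1, Eif2b5, Eif3c, Eif3e, Eif3g, Eif3k, Eif3l and Eif4b. Eif2b5 and Eif4b stood in both lists. Of the calls, 33 of 37 higher and 4 of 4 lower in males, and 8 of 10 higher in females, were kept in each of the 24 fits that leave out 1 library.

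Genes that act on these factors were read from lists of related genes. Beside the counts in the lists here and below, 19.5% of all genes tested were called higher and 16.8% lower in males. In females these shares were 4.97% and 4.95%. Whether any list departs from the shares over all genes was not tested. Among 26 regulators of cap-dependent translation 10 rose and 2 fell in males, with a median of 0.16, and 5 rose in females, with a median of 0.15. The female count was 3 with no filter on low counts and 1 to 3 when LLC1 female 1-4, 1-5, 2-3 or 2-4 or vehicle female 2-1, 2-2 or 2-3 is left out, and the male count of lower genes was 1 without male LLC1 mouse 1-5. Eif4ebp1, which encodes a repressor that binds eIF4E, had 52.6 to 276 CPM in male LLC1 mice (median 128), against 27.7 to 36.5 CPM in male vehicle mice (median 33.2), and 43.5 to 72.9 CPM in female LLC1 mice (median 61.1), against 25.4 to 31.6 CPM in female vehicle mice (median 27), with no overlap in either sex. It rose by 2.08 ± 0.28 in males and 1.12 ± 0.27 in females (adjusted p = 2.17e-05 and 0.0121). Its relative Eif4ebp2 was called in neither sex. The female value of Eif4ebp2 passed without TMM factors (adjusted p = 0.0482) and without female vehicle mouse 1-4 (0.0463). Eif4ebp3 was called higher in males and not called in females. Mknk2, a kinase of eIF4E, rose by 1.23 ± 0.19 in males (adjusted p = 6.23e-05) and by 0.62 ± 0.19 in females (adjusted p = 0.034, up to 0.0597 when 1 of the LLC1 females 1-4, 1-5 and 2-3 or the vehicle females 2-1, 2-2 and 2-3 is left out). Sesn1, an inhibitor of mTORC1, and Rheb, its activator, both rose in males, by 2.23 ± 0.33 and 0.44 ± 0.09 (adjusted p = 5.93e-05 and 0.00112).

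On the eIF2 side, 3 of 4 genes of the eIF2 phosphatase and of eIF5A hypusination rose in males and 1, Ppp1r15a, in females (2 in a fit of the female groups alone or without male LLC1 mouse 1-4 or 1-5, and 0 with no filter on low counts). Ppp1r15a, which directs the phosphatase that restores eIF2, had 40.9 to 119.7 CPM in male LLC1 mice (median 79.5), against 18.2 to 27.8 CPM in male vehicle mice (median 23.1), and rose by 1.76 ± 0.20 (adjusted p = 2.39e-06). In females it rose by 0.66 ± 0.20 (adjusted p = 0.0341, up to 0.0686 when 1 of the LLC1 females 1-4 and 2-4 or the vehicle females 1-3, 1-4, 2-1 and 2-2 is left out). Of 10 other cytosolic factors 5 rose in males and 3 in females, among them the release factor Etf1 in both (0.31 ± 0.07 and 0.28 ± 0.07, adjusted p = 0.00127 and 0.0119) and the recycling factor Abce1 in males (0.36 ± 0.08, adjusted p = 0.0011). The male count was 3 without male LLC1 mouse 1-5 or 2-1 or male vehicle mouse 1-3, and in a fit of the male groups alone. Dhx29, a helicase that aids scanning, rose by 0.22 ± 0.07 in males (adjusted p = 0.0214, up to 0.0717 with 1 library left out) and 0.31 ± 0.07 in females (adjusted p = 0.00992). Gle1, an mRNA export and translation factor, rose by 0.24 ± 0.08 in each sex (adjusted p = 0.0174 in males and 0.0408 in females), and with 1 library left out its adjusted p reached 0.0623 in males and 0.0891 in females, where 8 of 24 such fits did not call it. Dhx29 and Gle1 are named for these lost calls, after their values were seen.

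Of the 9 factors of mitochondrial translation, 0 rose and 4 fell in males (median -0.17), and 0 rose and 1 fell in females (median -0.12). The male count was 2 without male LLC1 mouse 1-5 or 2-1 or male vehicle mouse 2-4, with no filter on low counts and in a fit of the male groups alone, and 1 without TMM scaling. The calls of Gfm2 (-0.17 ± 0.06, adjusted p = 0.0277) and Tsfm (-0.23 ± 0.09, adjusted p = 0.0455), mitochondrial elongation factors G2 and Ts, were lost in 5 and 9 of the 24 fits that leave out 1 library, at an adjusted p of up to 0.072 and 0.119. The female count was 2 with DESeq2 or without male LLC1 mouse 1-5, and 0 without TMM scaling or with no filter. Tufm, the mitochondrial elongation factor Tu, had 58 to 64.5 CPM in male LLC1 mice (median 63.2), against 67.7 to 76.7 CPM in male vehicle mice (median 71.8), with no overlap, and fell by 0.21 ± 0.06 on the log2 scale (adjusted p = 0.00559). In females it fell by 0.18 ± 0.06 (adjusted p = 0.0345), a call lost in 12 of the 24 fits that leave out 1 library (adjusted p up to 0.139), namely without female LLC1 mice 1-4, 1-5, 2-1, 2-3 or 2-4, female vehicle mice 1-3, 1-4, 2-1, 2-2 or 2-3, male LLC1 mouse 2-1 or male vehicle mouse 1-3. Mtif2, the mitochondrial initiation factor, fell in males by 0.23 ± 0.07 (adjusted p = 0.0128), a call lost without TMM scaling (0.086).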

How the data were processed

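Poly(A) libraries (TruSeq version 2, 12 cycles of PCR, which keeps no strand) were made from gastrocnemius of 24 mice, per the labels. The submitters' processing notes name the build mm10 with CASAVA, STAR and featureCounts. Their versions, and how reads that match several genes were handled, are not given in the sources used. Raw read counts were deposited by the authors for each gene, with a gene length that was used only for CPM per kb; 0 sample columns were left unused. Genes were tested with edgeR 4.0.16 in R 4.3.3 (glmQLFit, robust, TMM, filterByExpr) over 24 libraries and 4 group means, leaving 20 residual degrees of freedom and a common biological coefficient of variation of 0.174. Benjamini-Hochberg adjustment ran over all 17773 genes, and a call is an adjusted p under 0.05. SE follows from the F statistic. Depth of 26.2 to 47.4 M counts makes counting error small beside the spread between mice for most of these genes. Pairs of libraries within a group differed by a chi-square of 10.1 to 211 per degree of freedom over 60 pairs, so none repeats another.

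Ratios of paralogues (pseudocount 0.5) were compared by two-sided exact permutation of the mice of 1 sex, for which the smallest p is 0.00216. Matching transcripts were sought with BLAST 2.17.0 at 95% identity over at least 300.0 bases of GENCODE M21 transcripts, and 19 members have such a counted gene. Promoter windows are the RefSeq ones of GRCm38.p6. Alternatives were DESeq2 1.42.0, limma-voom (limma 3.58.1), other scaling, no filter, replicate blocks, smaller fits and leaving out each library. Named genes are those with the smallest p among the called in each comparison (up to 10 in males, up to 8 in females, and in vehicle mice the 2 called) and a set of textbook members; the members and lists were chosen with earlier results of these data known. The edgeR procedure was tested on simulated counts in which all groups shared the same spread for each gene. That setting cannot show how the test behaves for genes that spread more widely among LLC1 males than in the other groups.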

Additional observations from a re-analysis of the deposited data

Results flagged for a closer look

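The levels of 29 translation factor genes were screened in the 4 groups for 1 mouse standing apart from the other 5 of its group by Dixon's criterion (116 group and gene combinations, gap over range above the 95% critical value for 6 samples). That marked 12 of them, where chance marks about 1 in 20, and the combinations are not independent, since the same mice recur.

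Male vehicle mouse 1-3 was low for 7 genes. It had 90.8 CPM of Eef2k, against 106 to 114 CPM in the other 5 male vehicle mice, 279 CPM of Eif1 (338 to 373 in the others), 29.2 CPM of Eif3g (33.3 to 34.5) and 217 CPM of Eif4b (273 to 302). It also had 588 CPM of Eif4g1 (712 to 786), 193 CPM of Eif4g3 (243 to 269) and 208 CPM of Eif5a (229 to 239.6). The TMM factor of this library was 1.056, against 0.9241 to 0.951 in the other 5 male vehicle mice. Its unscaled share of counts in the 57 genes was 0.838%, against 0.843% to 0.852% in the other 5. The part of library scaling in these low values was not tested. Male LLC1 mouse 1-5 was high for 3 genes, with 224 CPM of Eif3e (148 to 171 in the other 5), 289 CPM of Eif5a (225 to 246) and 53.6 CPM of Eif6 (28.2 to 37.4). Male LLC1 mouse 2-2 was high for Eif2ak1, at 105 CPM (80.4 to 87.5 in the other 5). Female vehicle mouse 1-1 was low for Eif3k, at 52.4 CPM (60.0 to 63.9 in the other 5).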

How the results depend on the processing

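Counts of translation factors called stayed within 1.5 times of those reported under DESeq2 size factors, total counts without TMM factors, DESeq2, limma-voom and no filter on low counts, with 9 to 11 genes in females, 37 to 44 in males, 2 or 3 between vehicle mice and 0 in the test of the sex difference. Fits that each leave out 1 library gave 8 to 15 genes in females, 37 to 45 in males, 0 in the sex difference and 2 to 6 between vehicle mice. A fit of the 2 groups compared alone called 21 genes in females, 20 higher and 1 lower, and 36 in males. The unadjusted exact p of the Eef1a1 to Eef1a2 ratio in males was not under 0.05 with a difference of group medians (0.30, p = 0.102). Leaving out 1 mouse gave differences of 0.29 to 0.45, and the p was not under 0.05 in 5 of these 12 cases (without male LLC1 mouse 1-4 or 2-1 or male vehicle mouse 1-1, 2-4 or 2-5, exact permutation p up to 0.0671). The cause was not tested. No direction reversed for a called gene.

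The titles give some mice of different groups the same number. With the full number as a replicate block 3 genes were called in females, 24 in males (21 higher and 3 lower) and 0 between vehicle mice, and over all genes 480.0, 3607 and 269. With the first digit of the number as the block the counts were 11, 41 and 2. By role, the full number as the block took the higher calls in males from 5 to 1 for eIF2B and from 7 to 4 for the cap complex. For start codon genes they went from 7 to 3 and for elongation factors from 3 to 1. In females they went from 1 to 0 for eIF2B, 3 to 0 for eIF3, 3 to 1 for the cap complex and 2 to 1 for start codon genes. Deviations from the group means of same-numbered mice correlated at -0.17 to 0.06 in females and -0.07 to -0.01 in males, at 0.01 to 0.30 between vehicle mice of the 2 sexes (0.30 for mice 1-3) and at -0.09 to 0.09 between LLC1 mice of the 2 sexes, over 3 to 5 pairs each. In none of these was every pair over 0.1, so the numbers were not taken to pair the mice, and whether they mark a shared cage or day is not known.

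Depth limits little for most of these genes. The least abundant gene tested, Eif5a2, held 1506 counts over all 24 libraries, and how far counting error limits its values was not tested. Lane differences cannot be told apart from group differences. Reads shared with pseudogenes and overlapping genes could not be separated from the counts.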
